A study of Homo sapiens with 18 samples.

Results

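WNT signalling in pancreatic ductal adenocarcinoma (PDAC) cells was followed through 42 genes, the rows of the deposited expression table that carry the symbols of chosen WNT ligands, receptors, regulators and targets, of 40266 symbols in all. They comprise 13 ligands, 10 Frizzled receptors, 2 LRP co-receptors, 3 further receptors with a tyrosine kinase-like domain, 3 genes of secreted antagonist families, 3 TCF/LEF transcription factors, 4 feedback inhibitors, 3 R-spondin receptors and the ligand-modifying enzyme *PORCN*. RNA was sequenced from 2 human PDAC cell lines, Panc1 from a primary tumour, used in the study as a mesenchymal-like model, and Panc89 from a lymph node metastasis, used as an epithelial model. From each line there were parental cells, Holoclone cells standing for cancer stem cells (CSCs) and Paraclone cells standing for non-CSCs. This gave 6 groups with 3 libraries each and 18 libraries in all. Each Holoclone or Paraclone group is 1 clone grown from a single cell, so a difference between the variants of a line is a difference between 2 clones. All groups were grown untreated in the same kind of medium, and the replicates are different passages. The p-values therefore measure the spread between passages of a line or clone, not between independent clones or patients.

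WNT ligands are secreted lipid-modified proteins that bind Frizzled receptors. Together with the co-receptors LRP5 and LRP6 this stops the degradation of β-catenin, which then acts with TCF/LEF factors on target genes, several of which encode inhibitors of the same pathway. Other ligands, with the receptors ROR1, ROR2 and RYK, act without β-catenin on cell polarity and movement. In the pancreas the pathway takes part in organ growth, and in PDAC mutations of the ligase RNF43, which removes Frizzled receptors from the cell surface, make some tumours depend on their own WNT ligands.

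The values are TPM, a measure of transcript abundance scaled to the whole library, which the authors deposited as log2(TPM + 1). TPM take account of transcript length, so levels can be set side by side between genes, but they keep no read counts, so how deeply each library was sequenced is unknown, and with it the counting error of a low value. Of the 42 genes, 38 reached 1 TPM in at least 3 libraries and were tested. The differences were tested with limma-trend on the log2(TPM + 1) scale over all 16093 genes that passed this filter, and a gene is said to be higher or lower where its Benjamini-Hochberg adjusted p over all of these genes was under 0.05. Log2 fold changes are given ± their standard error (SE) and are too small for genes at about 1 TPM or less. *WNT4* passed the filter through the Panc1 Paraclone alone, and *FZD10* and *NKD1* through parental Panc89 alone. The filter thus favoured a difference of these genes from that group, and their p-values are to be read with this limit. *WNT2B*, *WNT5B*, *FZD9*, *ROR2*, *DKK3* and *SFRP1* reached 1 TPM in Panc1 libraries alone, and *WNT7A* and *LGR6* in Panc89 libraries alone. The same limit holds for their differences between the lines. It also holds for *ROR2* between the Panc1 clones, since this gene reached 1 TPM in parental and Holoclone Panc1 cells alone. Counts of members are descriptions and are printed beside the share of all tested genes that passed the same threshold. Whether groups overlap was not counted over all tested genes, so a lack of overlap describes the genes named. The scale on which libraries are made equal also matters: upper quartile scaling of the TPM moved the log2 fold change at the median gene from −0.18 to −0.040 between the parental lines, from 0.19 to 0.0053 between the Panc1 clones, from −0.11 to 0.0050 for the difference between the lines and from −0.17 to −0.022 for the Panc1 Paraclone against parental cells. Directions and calls were therefore checked under this and under median-of-ratios scaling, and no gene among the 42 that passed the threshold changed its direction under either.

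The labels of the lines were checked on marker genes. *VIM*, the mesenchymal intermediate filament gene, had group means between 2465 and 4318 TPM in Panc1 and at most 0.361 TPM in Panc89. *CDH1*, which encodes E-cadherin, had group means of at most 2.84 TPM in Panc1 and between 75.3 and 98.01 TPM in Panc89. The other markers were less uniform between the parental lines, where 66% of all genes were called. Of 5 epithelial or ductal markers, 3 were higher in Panc89, 1 was not called and *KRT8* was lower. The call of *KRT8* was lost with median-of-ratios scaling (adjusted p = 0.0547). Of 3 mesenchymal-like markers, 2 were lower in Panc89 and 1 was not called. Between 12932 and 14199 genes per library reached 1 TPM. Libraries correlated with the others of their group at a mean Pearson r, across genes, of 0.962 to 0.989. The lowest value belonged to Panc89 Paraclone replicate 2, followed by Panc89 Paraclone replicate 1 and Panc89 Holoclone replicate 1 at 0.970 each. The changes of *WNT9A*, *WNT7A*, *PORCN*, *DKK1*, *NKD2*, *ZNRF3*, *LEF1* and *LGR4* between the Panc89 clones are given with and without at least 1 of these 3 libraries. In bulk RNA, fewer cells that express a gene and less RNA of it per cell cannot be told apart.

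For 27 of the 42 genes the RefSeq promoter table of GRCh38.p14 held 36 windows of 300 bases, from 250 bases before to 50 bases after a RefSeq start, which for some genes lies inside the annotated gene. CTTTGAT, a core sequence bound by TCF/LEF factors, was searched on both strands and was found in 0 of these 36 windows. Of all 35116 promoter windows 919 (2.62%) held it, a share at which 36 windows are too few to show a difference. Among the genes without a window were *AXIN2*, *LGR5*, *NKD1* and *ZNRF3*. The median window of the table held 14 CpG dinucleotides. The windows of *WNT9A*, *ROR2* and *NKD2* held 53, 42 and 35, in the upper part of the range (percentiles 99.4, 94.2 and 85.9). Each of these 3 genes had 1 window, which begins directly outside its annotated gene, and the 250 bases before the start are shown because *ROR2* had the largest change between the Panc1 clones, *NKD2* the largest between the Panc89 clones and *WNT9A* the largest difference of that change between the lines. Sequences run 5′ to 3′ on the strand of the gene, and capitals mark CpG dinucleotides, of which *WNT9A* has 44, *ROR2* 32 and *NKD2* 26 in the bases shown. *WNT9A* lies on the minus strand (chr1:227947933-227948182), *ROR2* on the minus strand (chr9:91950229-91950478) and *NKD2* on the plus strand (chr5:1008552-1008801).
WNT9A: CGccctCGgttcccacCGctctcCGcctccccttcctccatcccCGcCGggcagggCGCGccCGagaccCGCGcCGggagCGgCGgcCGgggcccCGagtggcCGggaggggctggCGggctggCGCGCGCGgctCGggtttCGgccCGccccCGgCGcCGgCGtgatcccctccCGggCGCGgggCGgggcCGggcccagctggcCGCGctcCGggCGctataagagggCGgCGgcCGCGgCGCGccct
ROR2: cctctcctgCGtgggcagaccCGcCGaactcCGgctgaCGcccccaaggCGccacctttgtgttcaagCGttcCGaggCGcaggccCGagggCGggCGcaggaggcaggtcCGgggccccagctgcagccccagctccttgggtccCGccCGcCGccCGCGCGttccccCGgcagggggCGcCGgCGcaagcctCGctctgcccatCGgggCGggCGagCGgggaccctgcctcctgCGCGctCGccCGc
NKD2: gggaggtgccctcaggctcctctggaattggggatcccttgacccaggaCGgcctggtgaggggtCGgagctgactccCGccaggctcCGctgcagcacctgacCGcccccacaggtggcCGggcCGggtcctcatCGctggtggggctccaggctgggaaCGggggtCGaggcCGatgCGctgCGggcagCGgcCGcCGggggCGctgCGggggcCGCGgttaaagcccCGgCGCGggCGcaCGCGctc

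DNA methylation was not analysed here, and the CpG content describes the reference sequence.

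Of the 42 genes, 4 were not tested because fewer than 3 libraries reached 1 TPM. *WNT5A*, the best known ligand of β-catenin-independent signalling, stood at 1.18, 1.29 and 0.929 TPM in parental Panc1 and at most 0.417 TPM in the other 15 libraries. *AXIN2*, a widely used target gene of β-catenin, lay between 0.0624 and 0.372 TPM over all 18 libraries. *WNT16* reached 0.716 TPM at most, and *LGR5*, a marker of intestinal stem cells and target of the pathway, was listed at 0 in 13 of 18 libraries with a maximum of 0.0470 TPM. *AXIN2* and *LGR5* were thus low in both lines and in all variants.

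**Figure D1:**
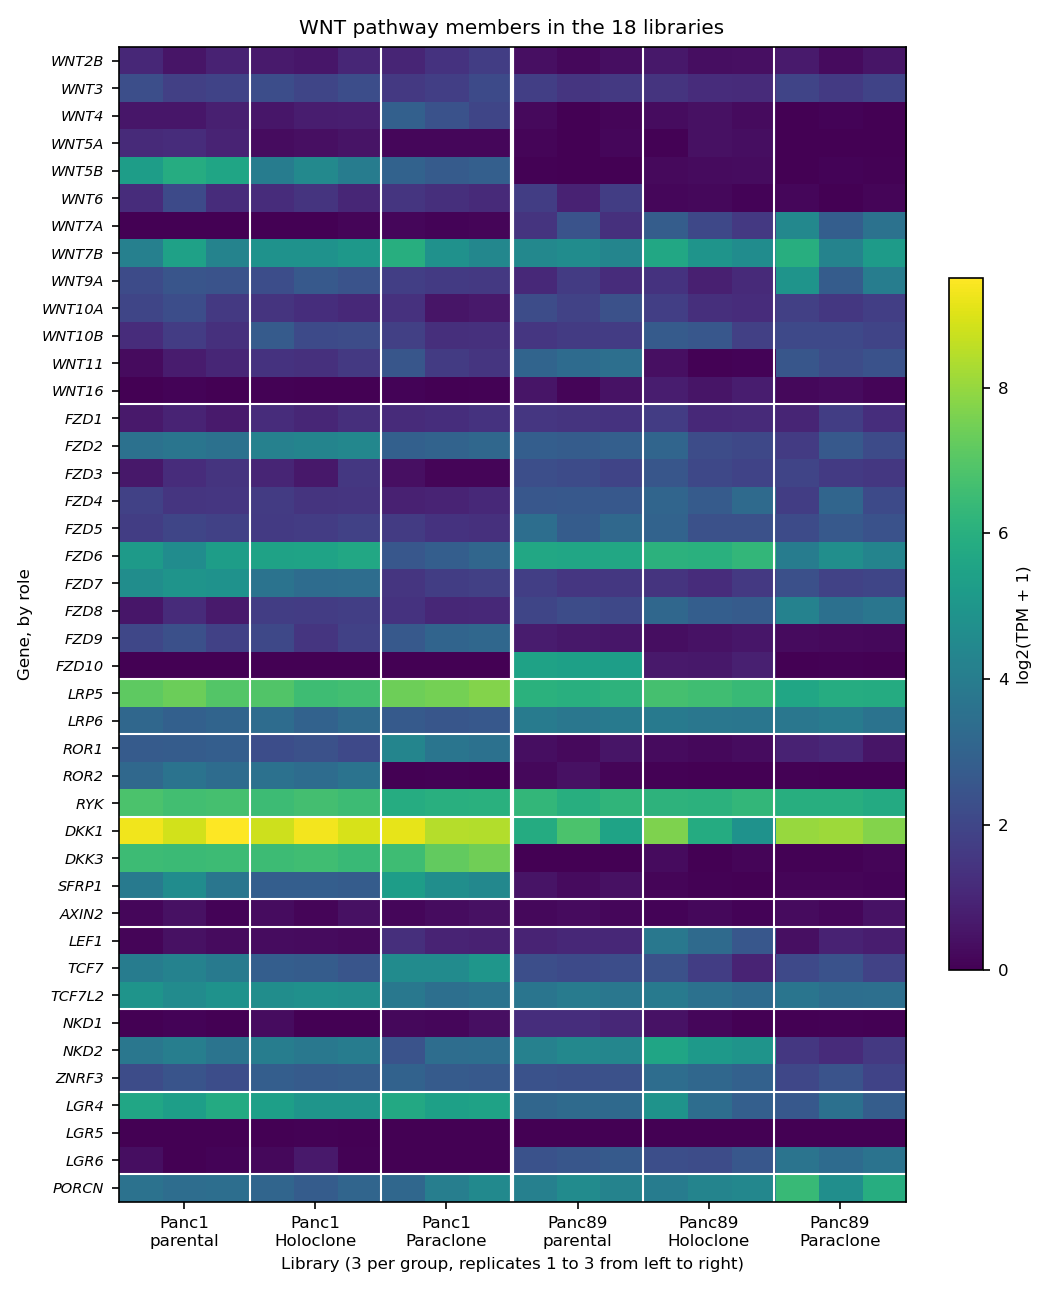
Log2(TPM + 1) of the 42 genes (rows, grouped by role) in the 18 libraries (columns, replicates 1 to 3 of each group from left to right); lighter colours are higher. *DKK1* and *LRP5* are among the brightest rows in Panc1, *DKK3* is bright in all 9 Panc1 libraries and dark in all 9 Panc89 libraries, and *FZD10* is bright in the 3 parental Panc89 libraries alone.

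To see how the lines differ before cloning, parental Panc89 was compared with parental Panc1. Of the 38 genes tested, 31 passed the threshold, 14 of them higher and 17 lower in Panc89. Over all tested genes 66% passed, 27.5% higher and 38.5% lower. By family, 7 of the 10 Frizzled receptors were higher in Panc89 and 3 lower. All 3 tyrosine kinase-like receptors and all 3 genes of antagonist families were lower. With an absolute log2 fold change of at least 1 in addition, 20 genes remained, 8 higher and 12 lower, against 37.4% of all genes. The median log2 fold change was −0.11 over the 38 genes and −0.18 over all genes.

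Among the ligands, *WNT5B*, which is mostly assigned to β-catenin-independent signalling, stood at 38.01, 57.9 and 47.6 TPM in parental Panc1 and at 0.0275, 0 and 0.0185 TPM in parental Panc89 (log2 fold change −5.57 ± 0.16, adjusted p = 9.75e-14). *WNT11*, a ligand known from cell movements in the embryo, stood at 0.217, 0.672 and 1.01 TPM in Panc1 and at 7.44, 8.92 and 10.04 TPM in Panc89 (log2 fold change 2.61 ± 0.25, adjusted p = 1.5e-07). *WNT7A*, a ligand that patterns the limb, stood at 0.0161, 0.0260 and 0.00908 TPM in Panc1 and at 1.67, 4.33 and 1.48 TPM in Panc89 (log2 fold change 1.69 ± 0.36, adjusted p = 0.00068). None of these 3 ligands overlapped between the lines. *WNT9A*, a ligand with a role in joint formation, stood at 3.50, 4.66 and 4.45 TPM in Panc1 and at 1.14, 2.11 and 1.32 TPM in Panc89 (log2 fold change −1.05 ± 0.36, adjusted p = 0.0178). *WNT4*, a ligand of kidney and gonad development, was under 1 TPM in both, with 0.477, 0.509 and 0.805 TPM in Panc1 and 0.190, 0.0244 and 0.0871 TPM in Panc89 (log2 fold change −0.53 ± 0.18, adjusted p = 0.0178). *WNT2B* was also lower in Panc89 (log2 fold change −0.51 ± 0.20, adjusted p = 0.0326) at levels of at most 1.08 TPM. The calls of *WNT9A*, *WNT4* and *WNT2B* rested on single libraries, and that of *WNT9A* was also lost with median-of-ratios scaling (adjusted p = 0.0557) and that of *WNT2B* with upper quartile (0.06) and median-of-ratios scaling (0.068). That of *WNT9A* was lost without Panc1 parental replicate 2 (adjusted p = 0.0503) or Panc89 parental replicate 1 (0.0607), and that of *WNT4* without Panc1 parental replicate 3 (0.0743) or Panc89 parental replicate 2 (0.0577). The call of *WNT2B* was lost without any of 5 of the 6 parental libraries, Panc1 replicate 2 being the exception. *WNT7B*, the most abundant ligand of Panc89, did not pass the test and was 16.4, 41.8 and 18.1 TPM in parental Panc1 and 20.8, 23.3 and 18.9 TPM in parental Panc89 (log2 fold change −0.15 ± 0.45, adjusted p = 0.786). *WNT3*, *WNT6*, *WNT10A* and *WNT10B*, all between 0.859 and 4.12 TPM, did not pass the test either.

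Every Frizzled receptor differed between the parental lines. *FZD7*, a receptor linked to stem cells of the gut, stood at 24.1, 29.2 and 27.7 TPM in Panc1 and at 2.42, 1.86 and 1.93 TPM in Panc89 (log2 fold change −3.19 ± 0.15, adjusted p = 5.42e-11). *FZD10* was listed at 0 in all 3 parental Panc1 libraries and stood at 43.4, 41.5 and 39.5 TPM in parental Panc89 (adjusted p = 1.16e-15), so no fold is given. *FZD9* stood at 3.03, 3.97 and 2.59 TPM in Panc1 and at 0.654, 0.540 and 0.497 TPM in Panc89 (log2 fold change −1.41 ± 0.17, adjusted p = 2.69e-06). None of these 3 receptors overlapped between the parental groups, *FZD7* and *FZD9* being higher in Panc1 and *FZD10* in Panc89. *FZD5* rose from 2.29, 2.99 and 2.57 TPM to 9.92, 5.75 and 8.37 TPM (log2 fold change 1.29 ± 0.21, adjusted p = 5.07e-05). *FZD8* rose from 0.507, 1.25 and 0.608 TPM to 2.95, 3.68 and 3.13 TPM (log2 fold change 1.27 ± 0.19, adjusted p = 2.78e-05). *FZD3*, a receptor of axon guidance, rose from 0.523, 1.33 and 1.69 TPM to 3.80, 3.52 and 2.89 TPM (log2 fold change 1.05 ± 0.25, adjusted p = 0.00152). In these 3 receptors, too, the lowest Panc89 library was above the highest Panc1 library. *FZD6*, a receptor of planar cell polarity in the skin, had the highest group mean of the Frizzled transcripts in the parental cells of both lines. *FZD7* was close to it in parental Panc1 (27.0 against 32.1 TPM) and *FZD10* in parental Panc89 (41.5 against 49.8 TPM). *FZD6* stood at 34.9, 23.7 and 37.8 TPM in Panc1 and at 50.3, 47.96 and 51.1 TPM in Panc89 (log2 fold change 0.64 ± 0.19, adjusted p = 0.00854). Without Panc1 parental replicate 2, its lowest library, the call was lost (adjusted p = 0.0539). *FZD2* stood at 10.8, 11.8 and 10.6 TPM in Panc1 and at 6.17, 5.86 and 6.29 TPM in Panc89 (log2 fold change −0.76 ± 0.25, adjusted p = 0.0137). *FZD4* (log2 fold change 0.99 ± 0.26, adjusted p = 0.00329) and *FZD1* (log2 fold change 0.67 ± 0.19, adjusted p = 0.00655) were higher in Panc89.

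The co-receptors moved in opposite directions. *LRP5*, among the most abundant of the 42 transcripts, stood at 139.6, 165 and 122 TPM in parental Panc1 and at 66.5, 62.9 and 68.8 TPM in parental Panc89 (log2 fold change −1.09 ± 0.13, adjusted p = 2.84e-06), while *LRP6* rose from a mean of 7.34 ± 0.768 TPM to 13.8 ± 1.06 TPM (SD, n = 3; log2 fold change 0.83 ± 0.13, adjusted p = 3.44e-05). *ROR1* stood at 5.56, 5.79 and 6.10 TPM in Panc1 and at 0.264, 0.184 and 0.435 TPM in Panc89 (log2 fold change −2.40 ± 0.18, adjusted p = 1.27e-08). *ROR2*, a receptor of WNT5A, stood at 8.19, 11.3 and 9.23 TPM in Panc1 and at 0.156, 0.330 and 0.0829 TPM in Panc89 (log2 fold change −3.15 ± 0.13, adjusted p = 7.86e-12). Both ROR receptors were therefore at or below 0.435 TPM in every parental Panc89 library. *RYK* was abundant in both lines, with 105 ± 7.10 TPM in Panc1 and 70.4 ± 8.73 TPM in Panc89 (SD, n = 3; log2 fold change −0.57 ± 0.11, adjusted p = 0.000188).

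All 3 genes of antagonist families were far lower in Panc89. *DKK1*, which blocks LRP5 and LRP6, stood at 630.3, 466 and 722 TPM in parental Panc1 and at 56.6, 111 and 43.99 TPM in parental Panc89 (log2 fold change −3.17 ± 0.51, adjusted p = 4.74e-05). *DKK3*, a divergent member of the family that is not thought to bind LRP6, stood at 91.1, 87.8 and 91.02 TPM in Panc1 and at 0.00228, 0 and 0 TPM in Panc89 (log2 fold change −6.51 ± 0.17, adjusted p = 4.25e-14). *SFRP1*, which captures WNT ligands outside the cell, stood at 13.6, 23.5 and 12.4 TPM in Panc1 and at 0.403, 0.215 and 0.350 TPM in Panc89 (log2 fold change −3.68 ± 0.22, adjusted p = 5.56e-10). In each of the 3 genes the lowest Panc1 library was above the highest Panc89 library, and of the 3 *DKK1* alone kept levels above 1 TPM in parental Panc89.

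Of the TCF/LEF factors, *TCF7* stood at 15.01, 17.4 and 13.98 TPM in parental Panc1 and at 3.83, 3.44 and 3.76 TPM in parental Panc89 (log2 fold change −1.81 ± 0.26, adjusted p = 1.41e-05). *TCF7L2*, the TCF factor of gut epithelium, stood at 29.3, 22.7 and 27.8 TPM in Panc1 and at 12.03, 14.3 and 12.4 TPM in Panc89 (log2 fold change −0.98 ± 0.15, adjusted p = 3.09e-05). *LEF1* went the other way, from 0.0994, 0.355 and 0.213 TPM in Panc1 to 0.922, 1.09 and 1.07 TPM in Panc89 (log2 fold change 0.73 ± 0.23, adjusted p = 0.0114). Of the feedback inhibitors, which bind Dishevelled or remove Frizzled receptors, *NKD1* rose from 0.0215, 0.0641 and 0.0162 TPM in Panc1 to 1.39, 1.40 and 1.08 TPM in Panc89 (log2 fold change 1.14 ± 0.13, adjusted p = 1.7e-06). *NKD2* (12.5, 15.7 and 11.7 TPM in Panc1 and 17.02, 20.7 and 19.4 TPM in Panc89, log2 fold change 0.49 ± 0.24, adjusted p = 0.079) did not pass the test, but passed it with either other scaling and in a fit of the parental groups alone. *ZNRF3* (3.67, 4.50 and 3.79 TPM and 4.30, 3.93 and 4.18 TPM, log2 fold change 0.045 ± 0.15, adjusted p = 0.81) lay in the same range in both lines. Of the R-spondin receptors, *LGR4* was lower and *LGR6* higher in parental Panc89, where *LGR4* still had the higher mean (8.36 against 4.89 TPM). *LGR4* stood at 47.8, 39.3 and 55.6 TPM in Panc1 and at 7.82, 8.67 and 8.59 TPM in Panc89 (log2 fold change −2.36 ± 0.37, adjusted p = 3.36e-05). *LGR6* stood at 0.274, 0.0145 and 0.0650 TPM in Panc1 and at 4.31, 4.88 and 5.49 TPM in Panc89 (log2 fold change 2.40 ± 0.17, adjusted p = 5.05e-09). *PORCN*, which attaches the lipid that WNT ligands need for release, stood at 11.1, 9.48 and 9.77 TPM in Panc1 and at 16.5, 23.2 and 18.04 TPM in Panc89 (log2 fold change 0.85 ± 0.36, adjusted p = 0.0461). The groups did not overlap, but the call of *PORCN* was lost without a filter and without any single one of the 6 parental libraries (adjusted p up to 0.14 without Panc89 parental replicate 2).

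**Figure D2:**
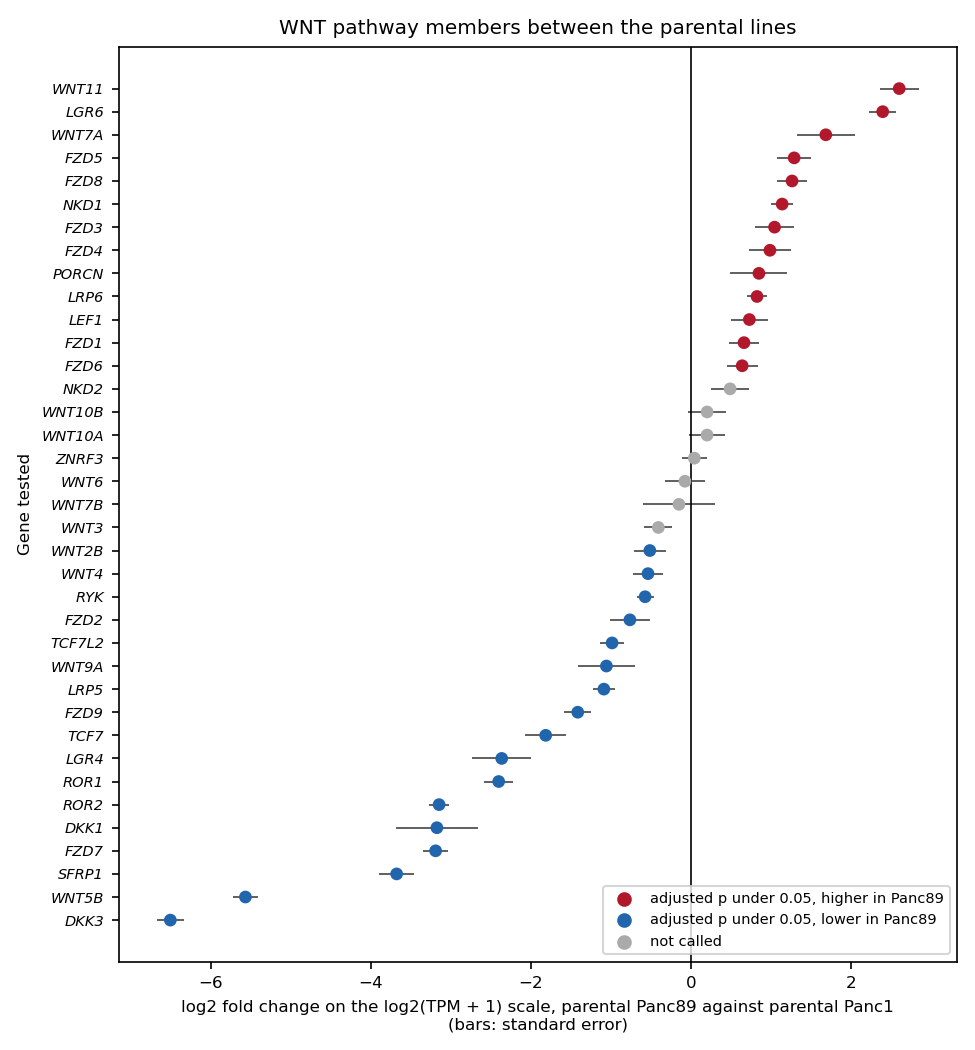
Log2 fold change on the log2(TPM + 1) scale of parental Panc89 against parental Panc1 for 37 tested genes (points, with bars for the standard error), coloured by direction where the adjusted p was under 0.05; *FZD10*, listed at 0 in every Panc1 library, is left out. The points run from −6.51 for *DKK3* to 2.61 for *WNT11*.

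To ask what separates CSC from non-CSC clones, Holoclone was compared with Paraclone cells, first in Panc1. Of the 38 genes tested, 21 passed the threshold in limma-trend, with 12 higher in the Holoclone and 9 lower, against 37.3% of all genes (27.4% higher and 9.97% lower). With upper quartile scaling the split was 10 higher and 10 lower, and with median-of-ratios scaling 9 and 10. Of the 10 Frizzled receptors 5 were higher (4 with either other scaling) and *FZD9* lower, and *ROR2* had the largest change of the 38 genes. With an absolute log2 fold change of at least 1 there were 11 genes, 6 higher and 5 lower, against 11.6% of all genes. The median log2 fold change was 0.13 over the 38 genes and 0.19 over all genes.

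*ROR2* stood at 10.5, 9.15 and 11.3 TPM in the Panc1 Holoclone and at 0.0214, 0.0380 and 0.0221 TPM in the Panc1 Paraclone (log2 fold change 3.46 ± 0.13, adjusted p = 2.54e-11). *ROR1* went the other way, with 3.72, 4.13 and 3.28 TPM in the Holoclone and 19.1, 12.04 and 10.7 TPM in the Paraclone (log2 fold change −1.63 ± 0.18, adjusted p = 5.62e-06). The Paraclone thus had almost no transcript of one ROR receptor and more of the other than the Holoclone, with no overlap between the clones in either gene. *RYK* was higher in the Holoclone (log2 fold change 0.59 ± 0.11, adjusted p = 0.000413), though its adjusted p was 0.0503 with median-of-ratios scaling. *LRP5* stood at 120.3, 92.5 and 96.4 TPM in the Holoclone and at 169, 183 and 211 TPM in the Paraclone (log2 fold change −0.86 ± 0.13, adjusted p = 0.000114). *LRP6* was higher in the Holoclone (log2 fold change 0.60 ± 0.13, adjusted p = 0.00168), so the co-receptors moved in opposite directions here, too.

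Among the Frizzled receptors, *FZD6* stood at 42.9, 44.3 and 51.2 TPM in the Panc1 Holoclone and at 4.98, 6.23 and 7.89 TPM in the Paraclone (log2 fold change 2.69 ± 0.19, adjusted p = 4.19e-08). *FZD7* stood at 11.4, 9.26 and 9.64 TPM in the Holoclone and at 1.76, 2.28 and 2.49 TPM in the Paraclone (log2 fold change 1.81 ± 0.15, adjusted p = 2.93e-07). *FZD2* stood at 16.96, 18.6 and 20.01 TPM in the Holoclone and at 6.55, 7.16 and 8.04 TPM in the Paraclone (log2 fold change 1.24 ± 0.25, adjusted p = 0.00102). These 3 receptors held most of the Frizzled transcripts of the Holoclone, and each was above every Paraclone library. *FZD3* (0.956, 0.542 and 1.93 TPM against 0.300, 0.0852 and 0.0832 TPM, log2 fold change 0.84 ± 0.25, adjusted p = 0.0138) and *FZD8* (2.27, 2.26 and 2.38 TPM against 1.60, 1.09 and 1.12 TPM, log2 fold change 0.55 ± 0.19, adjusted p = 0.0342) were also higher, at low levels. The call of *FZD3* was lost without Panc1 Holoclone replicate 3 (adjusted p = 0.0839) and that of *FZD8* without a filter, with either other scaling (adjusted p = 0.128 and 0.168) and without any of the 6 libraries except Panc1 Paraclone replicate 1. *FZD9* stood at 3.20, 1.77 and 2.55 TPM in the Holoclone and at 5.34, 7.38 and 7.95 TPM in the Paraclone (log2 fold change −1.18 ± 0.17, adjusted p = 7.05e-05). *FZD5* (2.04, 2.23 and 2.58 TPM against 2.15, 1.63 and 1.47 TPM, log2 fold change 0.26 ± 0.21, adjusted p = 0.361) did not pass the test, and *FZD10* was listed at 0 in all 6 libraries.

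The ligands divided between the clones. *WNT5B* stood at 14.9, 21.4 and 15.04 TPM in the Panc1 Holoclone and at 6.85, 5.58 and 6.29 TPM in the Paraclone (log2 fold change 1.31 ± 0.16, adjusted p = 1.19e-05). *WNT4* stood at 0.493, 0.687 and 0.755 TPM in the Holoclone and at 6.62, 4.24 and 2.95 TPM in the Paraclone (log2 fold change −1.72 ± 0.18, adjusted p = 3.16e-06). Neither overlapped between the clones. *WNT4* was at or above 1 TPM in no group but the Paraclone, through which it passed the filter. *WNT10B* was higher (log2 fold change 0.90 ± 0.23, adjusted p = 0.00636) and *WNT2B* lower in the Holoclone (log2 fold change −0.60 ± 0.20, adjusted p = 0.0251), the latter call being lost with a pseudocount of 0.1, in a fit of the 2 groups alone and without Holoclone replicate 1 or 2 or Paraclone replicate 2 or 3 (adjusted p up to 0.133). *WNT9A* (3.71, 5.34 and 4.43 TPM in the Holoclone and 2.38, 2.06 and 1.95 TPM in the Paraclone, log2 fold change 0.80 ± 0.36, adjusted p = 0.0958) and *WNT11* (1.63, 1.48 and 1.97 TPM and 4.85, 2.10 and 1.77 TPM, log2 fold change −0.46 ± 0.25, adjusted p = 0.162) did not pass the test, though *WNT9A* passed it in a fit of the 2 groups alone (adjusted p = 0.00966). *WNT7A* stayed at 0.00764, 0.0241 and 0.107 TPM and 0.112, 0.0714 and 0.0923 TPM, close to 0 in both clones. *PORCN* (7.65, 5.80 and 7.67 TPM in the Holoclone and 8.06, 15.7 and 21.97 TPM in the Paraclone, log2 fold change −0.92 ± 0.36, adjusted p = 0.0542) did not overlap between the clones and passed the threshold under 5 of the alternatives, among them both other scalings (adjusted p = 0.0351 and 0.0308) and the removal of Panc1 Paraclone replicate 1 (0.00982).

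Of the antagonist families, *SFRP1* stood at 6.23, 6.13 and 5.73 TPM in the Panc1 Holoclone and at 38.4, 24.8 and 20.7 TPM in the Paraclone (log2 fold change −1.998 ± 0.22, adjusted p = 3.72e-06). *DKK3* stood at 90.1, 94.6 and 84.9 TPM and 91.5, 146 and 173 TPM (log2 fold change −0.55 ± 0.17, adjusted p = 0.0184); Paraclone replicate 1 lay within the range of the Holoclone, and the call was lost with a pseudocount of 0.1 (adjusted p = 0.203), in a fit of the 2 groups alone (0.127) and without Holoclone replicate 3 or Paraclone replicate 2 or 3. *DKK1* remained among the most abundant of the 42 transcripts in both clones, with 439, 638 and 483 TPM and 562, 344 and 333 TPM (log2 fold change 0.36 ± 0.51, adjusted p = 0.642). The TCF/LEF factors changed places between the clones. *TCF7* stood at 6.21, 5.71 and 4.60 TPM in the Holoclone and at 22.8, 23.2 and 31.1 TPM in the Paraclone (log2 fold change −2.03 ± 0.26, adjusted p = 1.84e-05). *TCF7L2* stood at 24.4, 26.04 and 24.9 TPM in the Holoclone and at 13.1, 10.2 and 11.2 TPM in the Paraclone (log2 fold change 1.07 ± 0.15, adjusted p = 4.98e-05). *LEF1* stood at 0.238, 0.220 and 0.175 TPM in the Holoclone and at 1.40, 0.924 and 0.808 TPM in the Paraclone (log2 fold change −0.75 ± 0.23, adjusted p = 0.0192). *TCF7L2* was thus the most abundant of the 3 in the Holoclone and *TCF7* in the Paraclone, while the call of *LEF1* was lost without Holoclone replicate 3 (adjusted p = 0.056) or Paraclone replicate 1 (0.0756).

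Among the feedback inhibitors, *NKD2* stood at 15.3, 13.1 and 14.7 TPM in the Panc1 Holoclone and at 4.39, 9.60 and 9.85 TPM in the Paraclone (log2 fold change 0.85 ± 0.24, adjusted p = 0.0103). This call was lost with upper quartile scaling (log2 fold change 0.62, adjusted p = 0.0699) and with median-of-ratios scaling (0.59, adjusted p = 0.0722), and in a fit of the 2 groups alone (adjusted p = 0.0759). *ZNRF3* (6.21, 5.57 and 5.94 TPM and 7.03, 5.61 and 5.33 TPM, log2 fold change −0.011 ± 0.15, adjusted p = 0.989) did not pass the test, and *NKD1* stayed at 0.258, 0.0215 and 0.0180 TPM and 0.165, 0.117 and 0.298 TPM. *LGR4* (40.03, 29.8 and 29.8 TPM in the Holoclone and 51.7, 41.3 and 43.6 TPM in the Paraclone, log2 fold change −0.45 ± 0.37, adjusted p = 0.37) did not pass the test. *LGR6* (0.154, 0.579 and 0.0291 TPM and 0, 0.0132 and 0.0257 TPM) stayed under 1 TPM in every library of both clones.

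In Panc89, 17 of the 38 genes passed the threshold in limma-trend between Holoclone and Paraclone cells, 7 higher and 10 lower in the Holoclone, against 35.7% of all genes (22.4% higher and 13.3% lower). The 4 ligands that passed were lower in the Holoclone, and so was *PORCN*, whereas 2 feedback inhibitors and *LEF1* were higher. In a fit of these 2 groups alone 13 genes passed, 8 higher and 5 lower, against 21.0% of all genes. *WNT3*, *WNT7A* and *PORCN* were among those lost. With an absolute log2 fold change of at least 1 there were 10 genes, 4 higher and 6 lower, against 13.2% of all genes. Leaving out the libraries that stood apart, the count was 16 without Panc89 Paraclone replicate 2, against 41.0% of all genes. It was 14 without Panc89 Paraclone replicate 1, against 29.1%, and 17 without Panc89 Holoclone replicate 1, against 36.4%. The median log2 fold change was 0.063 over the 38 genes and 0.092 over all genes.

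*WNT9A* stood at 1.65, 0.800 and 1.18 TPM in the Panc89 Holoclone and at 28.9, 5.82 and 15.1 TPM in the Paraclone (log2 fold change −2.77 ± 0.36, adjusted p = 2.5e-05). Even the lowest Paraclone library, replicate 2, was above every other library of the series for this gene, and without it the log2 fold change was −3.33 (adjusted p = 1.46e-07). Without Paraclone replicate 1, the highest, it was −2.26 (adjusted p = 4.28e-05). *WNT11* stood at 0.306, 0.0494 and 0.0606 TPM in the Holoclone and at 4.76, 3.57 and 4.29 TPM in the Paraclone (log2 fold change −2.19 ± 0.25, adjusted p = 5.5e-06). *WNT7A* stood at 5.95, 3.19 and 1.95 TPM in the Holoclone and at 20.4, 6.14 and 10.9 TPM in the Paraclone (log2 fold change −1.47 ± 0.36, adjusted p = 0.00489). *PORCN* stood at 14.8, 18.6 and 20.1 TPM in the Holoclone and at 82.6, 24.95 and 59.5 TPM in the Paraclone (log2 fold change −1.45 ± 0.36, adjusted p = 0.00496). Paraclone replicate 2 was again the lowest of its group for both genes, and without it the log2 fold changes were −1.85 for *WNT7A* and −1.93 for *PORCN*. Without Paraclone replicate 1, the highest for both, they were −1.06 (adjusted p = 0.03) and −1.09 (0.0317). In a fit of these 2 groups alone neither gene passed the threshold (adjusted p = 0.0954 and 0.0704). *WNT3*, a classical activator of β-catenin, was lower in the Holoclone (log2 fold change −0.56 ± 0.17, adjusted p = 0.0202), a call lost in a fit of the 2 groups alone and without Holoclone replicate 2 or 3 or Paraclone replicate 1 or 3 (adjusted p up to 0.0731). *WNT7B*, with 50.6, 29.2 and 23.5 TPM in the Holoclone and 60.5, 18.1 and 35.8 TPM in the Paraclone, overlapped between the clones (log2 fold change −0.059 ± 0.45, adjusted p = 0.946). *WNT5B* and *WNT4* stayed at or below 0.328 TPM in all 6 libraries, at 0.170, 0.226 and 0.231 TPM and 0, 0.0623 and 0.0523 TPM for *WNT5B* and 0.239, 0.328 and 0.209 TPM and 0.0205, 0.0600 and 0.0169 TPM for *WNT4*. Neither passed the test, but both passed it as higher in the Holoclone in a fit of the 2 groups alone (adjusted p = 0.0323 for *WNT5B* and 0.0209 for *WNT4*) and with a pseudocount of 0.1 (0.00124 and 0.00603).

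*FZD6* was the most abundant Frizzled transcript of both Panc89 clones, at 67.9, 63.5 and 78.2 TPM in the Holoclone and 15.04, 25.1 and 18.3 TPM in the Paraclone (log2 fold change 1.82 ± 0.19, adjusted p = 3.5e-06). *FZD8* stood at 7.94, 6.09 and 5.69 TPM in the Holoclone and at 17.5, 10.3 and 12.4 TPM in the Paraclone (log2 fold change −0.91 ± 0.19, adjusted p = 0.00163). *FZD7* stood at 1.72, 1.30 and 1.95 TPM in the Holoclone and at 3.96, 2.63 and 2.98 TPM in the Paraclone (log2 fold change −0.65 ± 0.15, adjusted p = 0.00378), a call lost in a fit of the 2 groups alone (adjusted p = 0.0533). The Holoclone thus had more *FZD6* and less *FZD7* and *FZD8*, each without overlap. *FZD10* stood at 0.576, 0.522 and 0.786 TPM in the Holoclone and at 0, 0.0395 and 0 TPM in the Paraclone (log2 fold change 0.68 ± 0.10, adjusted p = 9.97e-05), under 1 TPM in both. *FZD4* was higher in the Holoclone (log2 fold change 0.72 ± 0.26, adjusted p = 0.0422), but its groups overlapped and the call was lost without Holoclone replicate 1 or 3 or Paraclone replicate 1 or 3, and with either other scaling, a pseudocount of 0.1, no filter or a fit of the 2 groups alone. *FZD2* (7.67, 3.65 and 3.19 TPM and 2.13, 5.35 and 3.54 TPM), *FZD3* (4.84, 3.17 and 2.79 TPM and 2.84, 2.10 and 1.93 TPM), *FZD5* (7.21, 4.16 and 4.15 TPM and 3.56, 5.30 and 4.22 TPM) and *FZD9* (0.290, 0.377 and 0.490 TPM and 0.200, 0.194 and 0.164 TPM) did not pass the test, *FZD9* passing it with a pseudocount of 0.1 (adjusted p = 0.036).

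*LRP5* stood at 102, 95.2 and 83.8 TPM in the Panc89 Holoclone and at 48.7, 57.5 and 56.4 TPM in the Paraclone (log2 fold change 0.78 ± 0.13, adjusted p = 0.000296), the opposite direction to Panc1. *ROR1* was low in both, at 0.205, 0.138 and 0.245 TPM and 0.882, 1.06 and 0.445 TPM (log2 fold change −0.57 ± 0.18, adjusted p = 0.0234), and its call was lost without Holoclone replicate 2 or without Paraclone replicate 1 or 2 (adjusted p up to 0.0781). *ROR2* was at most 0.0454 TPM in the 6 libraries, with 0.0454, 0.00699 and 0 TPM in the Holoclone and 0.0278, 0.00873 and 0.00802 TPM in the Paraclone. *DKK1* stood at 202, 56.6 and 27.8 TPM in the Holoclone and at 261, 277 and 213 TPM in the Paraclone (log2 fold change −1.84 ± 0.51, adjusted p = 0.0101). Its highest Holoclone library, replicate 1, fell just short of the lowest Paraclone library. Without that replicate the log2 fold change was −2.61 (adjusted p = 7.37e-05), and without Holoclone replicate 3, the lowest, it was −1.20 and the call was lost (adjusted p = 0.0561). In a fit of the 2 groups alone the call was lost as well (adjusted p = 0.12). *DKK3* (0.225, 0 and 0.0932 TPM and 0.0319, 0.0301 and 0.0931 TPM) and *SFRP1* (0.0842, 0.0452 and 0.0239 TPM and 0.0997, 0.108 and 0.0606 TPM) were near 0 in both clones.

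*NKD2*, the feedback inhibitor that binds Dishevelled, had the largest change of the 38 genes between the Panc89 clones. It stood at 46.4, 33.4 and 29.3 TPM in the Holoclone and at 1.93, 1.25 and 1.95 TPM in the Paraclone (log2 fold change 3.77 ± 0.24, adjusted p = 1.04e-08). *ZNRF3* stood at 9.58, 8.09 and 6.81 TPM in the Holoclone and at 3.10, 4.36 and 2.79 TPM in the Paraclone (log2 fold change 1.06 ± 0.15, adjusted p = 6.78e-05). *LEF1*, both a mediator and a target of β-catenin signalling, stood at 12.9, 8.69 and 4.96 TPM in the Holoclone and at 0.326, 0.885 and 0.694 TPM in the Paraclone (log2 fold change 2.52 ± 0.23, adjusted p = 6.81e-07). These 3 genes were higher in every Holoclone than in any Paraclone library. Holoclone replicate 1 was the highest for all 3, and without it the log2 fold changes were 3.59 for *NKD2*, 0.95 for *ZNRF3* and 2.23 for *LEF1*, all still past the threshold. *NKD1* was at 0.372, 0.123 and 0.0210 TPM in the Holoclone and at 0.0114, 0.0466 and 0.00375 TPM in the Paraclone and did not pass the test. *TCF7* (4.06, 2.30 and 0.939 TPM and 3.30, 4.23 and 2.65 TPM, log2 fold change −0.45 ± 0.26, adjusted p = 0.197) passed the test only without Holoclone replicate 1 (log2 fold change −0.78, adjusted p = 0.0119). *TCF7L2* (14.1, 10.8 and 9.03 TPM and 11.8, 9.84 and 10.04 TPM) did not pass it. *LGR6* stood at 3.87, 3.67 and 5.04 TPM in the Holoclone and at 11.4, 8.93 and 11.4 TPM in the Paraclone (log2 fold change −1.16 ± 0.17, adjusted p = 7.38e-05). *LGR4* (28.7, 9.49 and 6.40 TPM and 5.19, 10.4 and 5.95 TPM, log2 fold change 0.74 ± 0.37, adjusted p = 0.13) overlapped between the clones, with 1 high library, Holoclone replicate 1, without which the log2 fold change was 0.16. Without Holoclone replicate 3 it was 1.16 and passed the threshold (adjusted p = 0.0184).

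**Figure D3:**
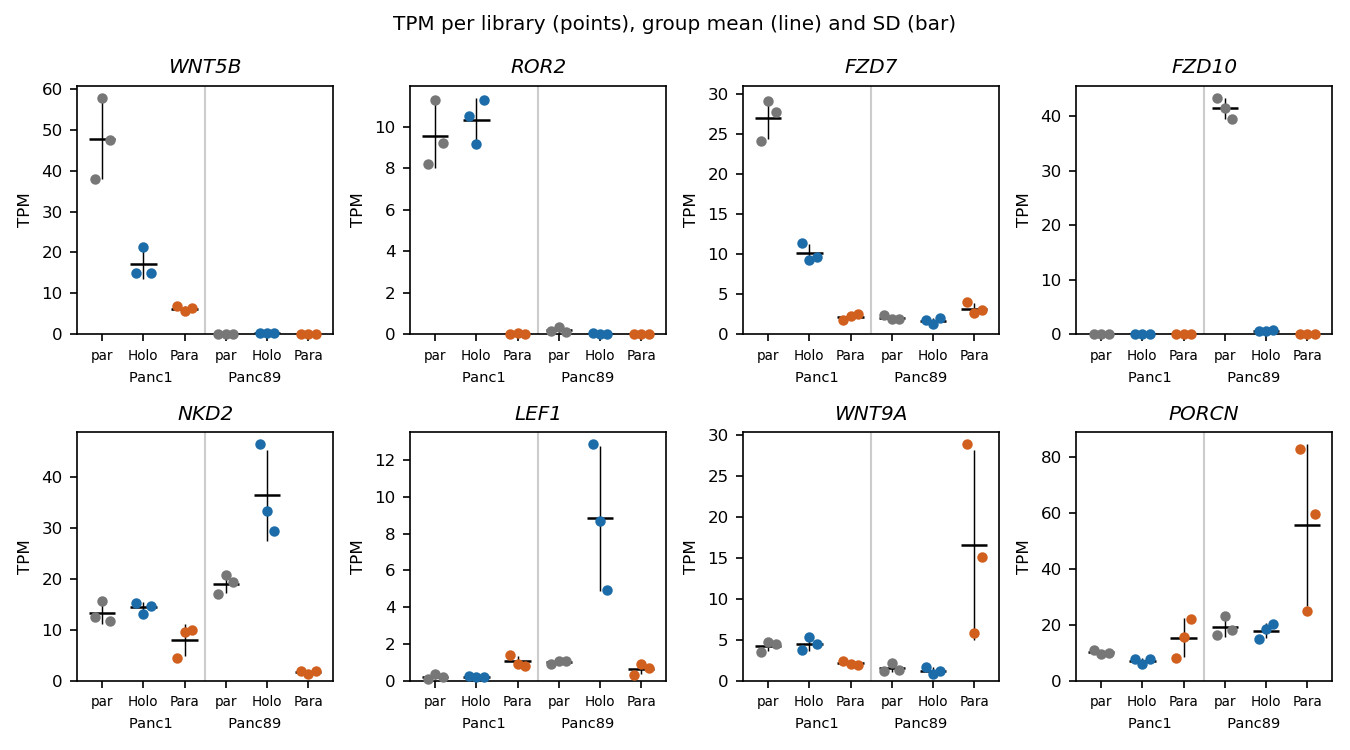
TPM of 8 genes in each of the 18 libraries (points) with the group mean (horizontal line) and SD (vertical line, cut at 0), for parental (par), Holoclone (Holo) and Paraclone (Para) cells of Panc1 and Panc89; each panel has its own linear axis from 0. *ROR2* sits at 8.19 TPM or more in parental and Holoclone Panc1 cells and at 0.330 TPM or less in the other 12 libraries, and *FZD10* sits at 39.5 TPM or more in the 3 parental Panc89 libraries and at 0.786 TPM or less in the other 15.

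Whether the Holoclone against Paraclone change is the same in both lines was tested as the difference of the 2 changes. Of the 38 genes, 24 passed the threshold in limma-trend, 10 with a more positive and 14 with a more negative change in Panc89 than in Panc1, against 35.1% of all genes. With either other scaling the split was 12 and 12, against 34.4% of all genes with upper quartile and 34.7% with median-of-ratios scaling. *DKK3* and *LGR4* entered with a more positive change and *FZD2* and *FZD6* left. With an absolute difference of at least 1 on the log2 scale there were 18 genes, 9 in each direction, against 20.5% of all genes. The median difference was −0.20 over the 38 genes and −0.11 over all genes. Without Panc89 Paraclone replicate 2 the count was 24, against 37.4% of all genes. It was also 24 without Panc89 Holoclone replicate 1, against 37.5%, and 23 without Panc89 Paraclone replicate 1, against 31.8%.

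*WNT9A* had the largest difference, with a Holoclone against Paraclone change of 0.80 ± 0.36 in Panc1 and −2.77 ± 0.36 in Panc89 (difference −3.57 ± 0.51, adjusted p = 6.62e-05). *ROR2* changed by 3.46 ± 0.13 in Panc1, while in Panc89 it was near 0 in both clones (difference −3.45 ± 0.18, adjusted p = 2.18e-09). *LEF1* had opposite signs, with −0.75 ± 0.23 in Panc1 and 2.52 ± 0.23 in Panc89 (difference 3.27 ± 0.33, adjusted p = 1.98e-06). Another 3 genes passed the threshold in both lines with opposite signs. *FZD7* changed by 1.81 ± 0.15 in Panc1 and −0.65 ± 0.15 in Panc89 (difference −2.46 ± 0.22, adjusted p = 5.66e-07). *LRP5* changed by −0.86 ± 0.13 in Panc1 and 0.78 ± 0.13 in Panc89 (difference 1.64 ± 0.19, adjusted p = 7.53e-06). *FZD8* changed by 0.55 ± 0.19 and −0.91 ± 0.19 (difference −1.46 ± 0.27, adjusted p = 0.00065), its Panc1 call being lost without most single libraries, as given above. In *NKD2* both changes had the same sign and differed in size, with 0.85 ± 0.24 in Panc1 and 3.77 ± 0.24 in Panc89 (difference 2.92 ± 0.33, adjusted p = 7.52e-06). *FZD6* was likewise higher in both Holoclones, by 2.69 ± 0.19 in Panc1 and 1.82 ± 0.19 in Panc89, and the difference of −0.88 ± 0.28 (adjusted p = 0.0216) was lost with either other scaling and without Panc1 Holoclone replicate 3, Panc1 Paraclone replicate 1 or Panc89 Holoclone replicate 2.

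*FZD6* and *NKD2* were thus the 2 genes higher in the Holoclone of both lines, and *ROR1* was the 1 gene lower in both, each call with the limits given above. Calls in both lines, with the same or opposite signs, were not counted over all tested genes. These counts therefore describe the genes named and are not read as a trait shared by the Holoclones. Of the other differences, those of *WNT4* (2.004 ± 0.26), *SFRP1* (1.95 ± 0.31), *TCF7* (1.58 ± 0.36) and *FZD9* (1.40 ± 0.24) came from genes lower in the Panc1 Holoclone that did not pass the test in Panc89. Those of *WNT11* (−1.73 ± 0.35), *LGR6* (−1.44 ± 0.24) and *DKK1* (−2.20 ± 0.72) came from genes lower in the Panc89 Holoclone that did not pass the test in Panc1. The difference of *DKK1* was lost without a filter and without Panc1 Holoclone replicate 2, Panc1 Paraclone replicate 2 or 3, or Panc89 Holoclone replicate 2 or 3 (adjusted p up to 0.062). The differences of *WNT7A* and *FZD2* were close to the threshold (adjusted p = 0.0436 and 0.0487) and were each lost with a pseudocount of 0.1, without a filter, in a fit of the compared groups alone and without 10 of the 12 single libraries, the exceptions being Panc89 Holoclone replicate 1 and Panc89 Paraclone replicate 2 for *WNT7A* and Panc89 Holoclone replicate 1 and Panc89 Paraclone replicate 1 for *FZD2*. *WNT5B* (−1.09 ± 0.22), *TCF7L2* (−0.999 ± 0.21) and *LRP6* (−0.58 ± 0.18) were higher in the Panc1 Holoclone and did not pass the test in Panc89, and *LRP6* lost the difference without Panc1 Holoclone replicate 1 or 3 or Panc1 Paraclone replicate 2. *ZNRF3* (1.07 ± 0.22) and *WNT3* (−0.89 ± 0.25) passed the test between the Panc89 clones and did not pass it between the Panc1 clones, and the value of *FZD10* (0.68 ± 0.15) is its Panc89 change, since it was listed at 0 in Panc1. With a pseudocount of 0.1 the differences of *WNT5B* (−0.24, adjusted p = 0.635) and of *ROR1* (0.30 in place of 1.06 ± 0.26, adjusted p = 0.644) were lost. *PORCN*, lower in the Panc89 Holoclone, changed by −0.92 ± 0.36 in Panc1 and −1.45 ± 0.36 in Panc89, and the difference of −0.52 ± 0.50 did not pass the test (adjusted p = 0.458).

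**Figure D4:**
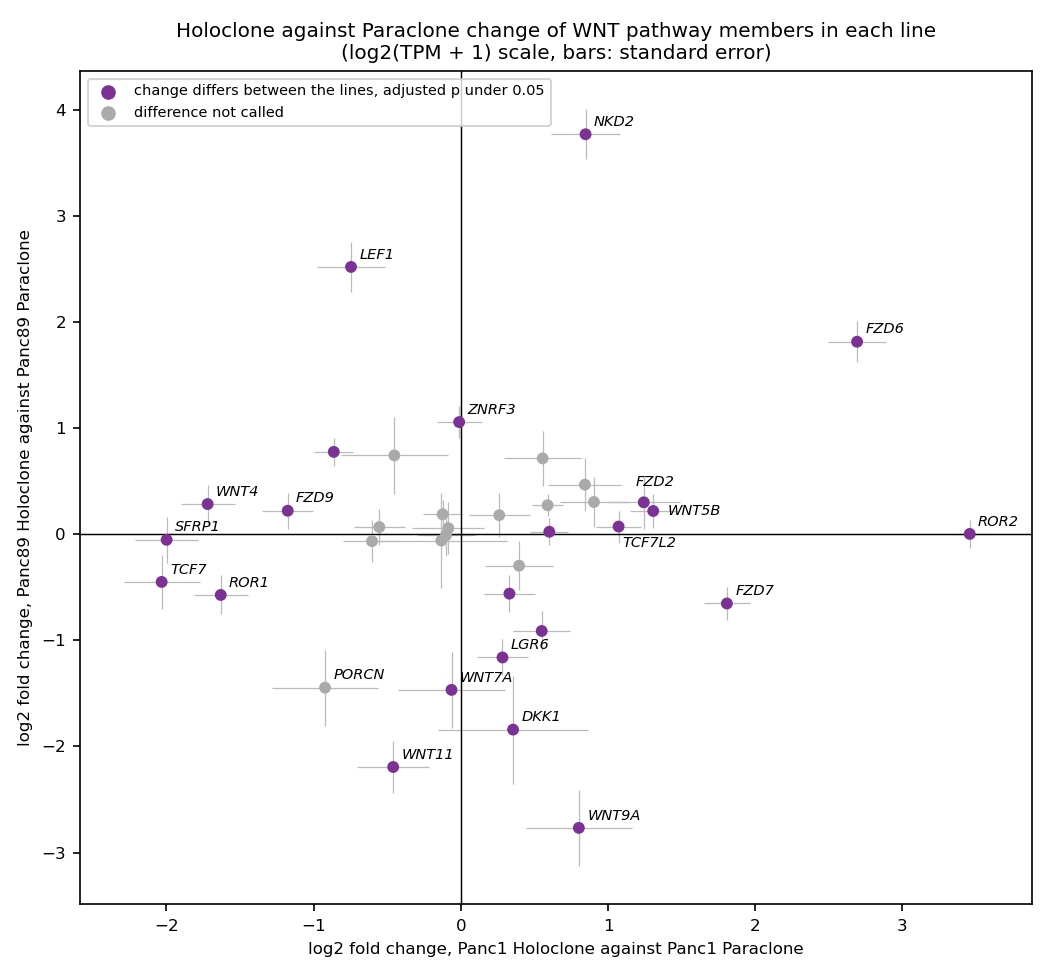
Log2 fold change of Holoclone against Paraclone cells in Panc1 (x axis) and in Panc89 (y axis) for 37 tested genes, with bars for the standard error on both axes; purple points are genes whose change differed between the lines at an adjusted p under 0.05, and *FZD10*, listed at 0 in Panc1, is left out. *FZD6* lies far from 0 on both axes, *ROR2* and *SFRP1* lie along the Panc1 axis, and *NKD2*, *LEF1* and *WNT9A* are spread along the Panc89 axis.

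The clones were also set against the parental cells of their line. The comparisons of a line share the same 3 parental libraries, so their values are given side by side and are not independent. In Panc1, 7 of the 38 genes passed the threshold in the Holoclone, against 10.9% of all genes. Of these 2 were higher and 5 lower, against 5.87% and 5.06% of all genes, and 4 had an absolute log2 fold change of at least 1, against 3.21%. In the Panc1 Paraclone 19 genes passed, against 28.6% of all genes, with 9 higher and 10 lower, against 7.31% and 21.3%, and 9 at an absolute log2 fold change of at least 1, against 7.95%. With upper quartile or median-of-ratios scaling the Paraclone count became 12 higher and 8 lower, against 23.6% and 23.5% of all genes. It was 12 in all without Panc1 parental replicate 1, against 20.5%, or without Panc1 Paraclone replicate 2, against 19.3%. In Panc89, 11 genes passed in the Holoclone, against 24.7% of all genes, with 6 higher and 5 lower, against 16.1% and 8.61%, and 4 at an absolute log2 fold change of at least 1, against 8.51%. In the Panc89 Paraclone 13 passed, against 19.4% of all genes, with 6 higher and 7 lower, against 9.37% and 10%, and 10 at an absolute log2 fold change of at least 1, against 7.36%. The parental libraries weighed on both counts. Without Panc89 parental replicate 1 the Holoclone count was 6, against 18.4% of all genes, and the Paraclone count 8, against 12.95%. Without Panc89 parental replicate 3 both counts were 7, against 18.2% for the Holoclone and 12.9% for the Paraclone.

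Some genes set both Panc1 clones apart from the parental cells. *WNT5B* averaged 47.8 ± 9.93 TPM (SD, n = 3) in parental cells and was lower in the Holoclone (log2 fold change −1.43 ± 0.16, adjusted p = 2.36e-05) and in the Paraclone (log2 fold change −2.74 ± 0.16, adjusted p = 5.36e-09). *FZD7* averaged 27.01 ± 2.59 TPM in parental cells and was lower in the Holoclone (log2 fold change −1.34 ± 0.15, adjusted p = 3.66e-05) and in the Paraclone (log2 fold change −3.14 ± 0.15, adjusted p = 9.06e-10). Parental cells were thus above both clones in these 2 genes, with the Holoclone in between. *ROR2*, at 9.57 ± 1.58 TPM in parental and 10.3 ± 1.08 TPM in Holoclone cells, was lower in the Paraclone alone (log2 fold change −3.35 ± 0.13, adjusted p = 5.36e-11; Holoclone log2 fold change 0.10 ± 0.13, adjusted p = 0.728). *FZD6* was lower in the Paraclone (log2 fold change −2.16 ± 0.19, adjusted p = 7.44e-07). *SFRP1* was lower in the Holoclone (log2 fold change −1.26 ± 0.22, adjusted p = 0.00113) and higher in the Paraclone (log2 fold change 0.73 ± 0.22, adjusted p = 0.0193), the latter call being lost with a pseudocount of 0.1, in a fit of the 2 groups alone and without parental replicate 1 or 3 or Paraclone replicate 1. *TCF7* was lower in the Holoclone (log2 fold change −1.34 ± 0.26, adjusted p = 0.00274). *WNT4* (log2 fold change 1.76 ± 0.18, adjusted p = 3.77e-06) and *ROR1* (log2 fold change 1.09 ± 0.18, adjusted p = 0.000414) were higher in the Paraclone, and *WNT10A* (log2 fold change −1.09 ± 0.23, adjusted p = 0.00244) and *TCF7L2* (log2 fold change −1.15 ± 0.15, adjusted p = 4.52e-05) were lower in it.

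In Panc89, *FZD10* was the extreme case: it averaged 41.5 ± 1.91 TPM (SD, n = 3) in parental cells, 0.628 ± 0.140 TPM in the Holoclone (log2 fold change −4.71 ± 0.10, adjusted p = 1.6e-13) and 0.0132 ± 0.0228 TPM in the Paraclone (log2 fold change −5.39 ± 0.10, adjusted p = 2.07e-14). Neither clone came near the parental level, and both stayed past the threshold in every alternative run. Of 3 endothelial marker genes, 2 were likewise lower in both clones than in parental cells. Between the clones these 2 went the other way, being lower in the Holoclone, where *FZD10* was higher. *PECAM1*, a surface gene of endothelial cells, averaged 60.1 ± 6.12 TPM in parental Panc89, 0.856 ± 0.354 TPM in the Holoclone and 4.54 ± 2.502 TPM in the Paraclone, and *CDH5* 3.78 ± 1.60, 0.392 ± 0.142 and 1.59 ± 0.539 TPM, while *VWF* was at most 0.355 TPM in all 18 libraries. The part of these genes in the *FZD10* result was not tested. *WNT6* was lower in both Panc89 clones (Holoclone log2 fold change −1.28 ± 0.25, adjusted p = 0.00121; Paraclone log2 fold change −1.33 ± 0.25, adjusted p = 0.00113), and so was *NKD1* (Holoclone log2 fold change −0.97 ± 0.13, adjusted p = 6.59e-05; Paraclone log2 fold change −1.16 ± 0.13, adjusted p = 1.99e-05). Parental *WNT6* lay at 2.27, 0.859 and 2.29 TPM and every library of both clones at or below 0.166 TPM. *WNT11* fell in the Holoclone (log2 fold change −3.10 ± 0.25, adjusted p = 2.7e-07) and in the Paraclone (log2 fold change −0.91 ± 0.25, adjusted p = 0.0157), the latter call being lost with a pseudocount of 0.1 and without parental replicate 3. *FZD8* was higher in both clones (Holoclone log2 fold change 0.83 ± 0.19, adjusted p = 0.00505; Paraclone log2 fold change 1.74 ± 0.19, adjusted p = 1.41e-05).

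In the Panc89 Paraclone, *NKD2* was lower than in parental cells (log2 fold change −2.89 ± 0.24, adjusted p = 6.14e-07) and *WNT9A* higher (log2 fold change 2.58 ± 0.36, adjusted p = 0.000121). *FZD6* was lower (log2 fold change −1.34 ± 0.19, adjusted p = 0.000157) and *LGR6* higher (log2 fold change 0.97 ± 0.17, adjusted p = 0.000745), the call of *LGR6* being lost with a pseudocount of 0.1 (adjusted p = 0.138). *WNT7A* (log2 fold change 1.89 ± 0.36, adjusted p = 0.00148), *DKK1* (log2 fold change 1.91 ± 0.51, adjusted p = 0.0144) and *PORCN* (log2 fold change 1.34 ± 0.36, adjusted p = 0.0145) were higher, but *WNT7A* lost its call in a fit of the 2 groups alone (adjusted p = 0.062), *DKK1* without parental replicate 1 or 3, and *PORCN* in a fit of the 2 groups alone and without parental replicate 1 or 3 or Paraclone replicate 1 or 3. The Panc89 Holoclone stood apart from parental cells in *LEF1* (log2 fold change 2.20 ± 0.23, adjusted p = 5.11e-06) and *ZNRF3* (log2 fold change 0.82 ± 0.15, adjusted p = 0.000932), both higher, and in *NKD2* (log2 fold change 0.88 ± 0.24, adjusted p = 0.0129), whose call was lost without parental replicate 1 or Holoclone replicate 1.

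The rest of the pathway was described with 6 lists of genes that are not among the 42. Their counts are to be read beside the shares of all tested genes, which were 27.5% higher and 38.5% lower in parental Panc89, 27.4% and 9.97% in the Panc1 Holoclone, and 22.4% and 13.3% in the Panc89 Holoclone. In the destruction complex and signal relay of β-catenin, all 16 genes were tested. Between the parental lines 5 were higher and 10 lower in Panc89, against 66% of all genes called (6 and 9 with upper quartile scaling, 6 and 7 with median-of-ratios scaling). *APC2*, a relative of the tumour suppressor *APC*, averaged 10.7 ± 1.22 TPM in Panc1 and 0.168 ± 0.0991 TPM in Panc89 (log2 fold change −3.32 ± 0.14, adjusted p = 1.34e-11), and *CSNK1E*, a kinase of the relay, 114 ± 11.8 and 345 ± 17.5 TPM (log2 fold change 1.59 ± 0.18, adjusted p = 8.96e-07). Between the Panc1 clones 9 of the 16 were higher and 1 lower in the Holoclone, against 37.3% of all genes (6 and 2 with either other scaling), led by the kinase *GSK3B* (log2 fold change 1.22 ± 0.13, adjusted p = 3.22e-06) and the Dishevelled gene *DVL3* (log2 fold change 1.19 ± 0.10, adjusted p = 1.53e-07). Between the Panc89 clones 3 were higher and 2 lower, against 35.7% of all genes (2 and 4 with either other scaling), *DVL1* (log2 fold change −1.20 ± 0.14, adjusted p = 6.79e-06) and *CSNK1E* (log2 fold change −1.06 ± 0.18, adjusted p = 0.000221) being the lower ones. The change differed between the lines in 11 of the 16, 1 of them upward and 10 downward in Panc89, against 35.1% of all genes, of which 14.8% upward and 20.4% downward (1 and 7 with either other scaling). The median log2 fold change of this list was −0.60 between the parental lines and 0.42 between the Panc1 clones, where that of all genes was −0.18 and 0.19.

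Of 11 nuclear partners of β-catenin, all tested, 2 were higher and 4 lower in parental Panc89, against 66% of all genes (4 and 3 with either other scaling), with *TCF7L1*, a mostly repressive TCF factor, at 38.7 ± 5.41 TPM in Panc1 and 0.932 ± 0.0775 TPM in Panc89 (log2 fold change −4.35 ± 0.19, adjusted p = 1.73e-11). In the Panc1 Holoclone 2 were higher, among them *PYGO1* (log2 fold change 2.002 ± 0.12, adjusted p = 3.86e-09), and 3 lower (2 and 4 with either other scaling), against 37.3% of all genes. In the Panc89 Holoclone, where 35.7% of all genes passed, 2 were higher, led by *TCF7L1* (log2 fold change 1.54 ± 0.19, adjusted p = 1.49e-05), and the corepressor *TLE3* was lower (log2 fold change −0.89 ± 0.23, adjusted p = 0.00638; 2 were lower with upper quartile and 3 with median-of-ratios scaling). Of 20 further secreted and surface modulators 7 were tested. In parental Panc89, with 66% of all genes called, 4 were higher, among them *RNF43* at 3.31 ± 1.09 TPM against 0.0831 ± 0.0523 TPM in Panc1 (log2 fold change 1.96 ± 0.17, adjusted p = 7.09e-08) and the R-spondin gene *RSPO4* (log2 fold change 2.03 ± 0.16, adjusted p = 2.06e-08), and *NOTUM*, which encodes an enzyme that removes the lipid of WNT ligands, was lower (log2 fold change −1.46 ± 0.29, adjusted p = 0.000332). In the Panc1 Holoclone *NOTUM* was higher (log2 fold change 2.07 ± 0.29, adjusted p = 4.51e-05) and *TPBG* lower (log2 fold change −2.27 ± 0.23, adjusted p = 1.67e-06). In the Panc89 Holoclone 4 were higher (3 with either other scaling, *TPBG* losing its call) against 35.7% of all genes called in both directions, led by the DKK1 receptor gene *KREMEN1* (log2 fold change 2.88 ± 0.43, adjusted p = 8.7e-05), and 2 lower, *RNF43* (log2 fold change −1.39 ± 0.17, adjusted p = 1.56e-05) and *RSPO3* (log2 fold change −1.23 ± 0.10, adjusted p = 2e-07).

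Of 9 genes of planar cell polarity 7 were tested, with 3 higher and 1 lower in parental Panc89 (4 and 1 with either other scaling), against 66% of all genes. In the Panc1 Holoclone 4 were higher and 2 lower (2 and 2 with either other scaling), against 37.3% of all genes, and in the Panc89 Holoclone 2 were higher, against 35.7%. *PTK7*, a receptor of this branch, averaged 35.00 ± 13.3 TPM in the Panc89 Holoclone and 5.40 ± 3.56 TPM in the Paraclone (log2 fold change 2.56 ± 0.30, adjusted p = 9.42e-06), and *PRICKLE1* was higher in parental Panc89 (log2 fold change 3.43 ± 0.18, adjusted p = 1.02e-10). Of 6 further known targets of β-catenin 5 were tested. *ASCL2*, a transcription factor of intestinal stem cells, was listed at 0 in all 9 Panc1 libraries and averaged 3.97 ± 0.413 TPM in parental Panc89, 12.9 ± 2.28 TPM in the Holoclone and 0.0360 ± 0.0314 TPM in the Paraclone (Holoclone against Paraclone log2 fold change 3.73 ± 0.13, adjusted p = 8.73e-12). *TNFRSF19* averaged 0.168 ± 0.105 TPM in the Panc1 Holoclone and 8.29 ± 2.43 TPM in the Paraclone (log2 fold change −2.96 ± 0.16, adjusted p = 1.14e-09), and *CD44* 584 ± 112 and 1864 ± 215 TPM (log2 fold change −1.68 ± 0.20, adjusted p = 7.94e-06). Of these 5 targets, 2 were higher and 2 lower in parental Panc89 (3 and 2 with either other scaling), against 66% of all genes. In the Panc89 Holoclone 2 were higher, against 35.7% of all genes, and in the Panc1 Holoclone 1 was higher and 2 lower, against 37.3%. With either other scaling 1 was higher in the Panc89 Holoclone, and in the Panc1 Holoclone none was higher and 2 were lower. Of 7 other genes of ligands and ligand release, *WLS*, the carrier of WNT ligands to the cell surface, was the 1 tested, and it was lower in the Panc1 Holoclone (log2 fold change −0.61 ± 0.18, adjusted p = 0.0162) and did not pass the test in Panc89 (log2 fold change 0.32 ± 0.18, adjusted p = 0.194).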

How the data were processed

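RNA of 18 libraries, 3 passages for each of 6 groups, was sequenced by the authors from stranded mRNA libraries, quantified with kallisto 0.46.1 against Ensembl GRCh38 and combined per gene by tximport. The authors deposited log2(TPM + 1) by gene symbol, and every column was assigned to a library. The authors ran DESeq2 for the tests in their study. Counts were not analysed here, so sequencing depth is unknown.

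Differences were tested in limma 3.58.1 under R 4.3.3 (lmFit, eBayes with trend, 6 group means over all 18 libraries), two-sided, after tests on simulated data. Of 40266 genes, the 16093 that reached 1 TPM in 3 or more libraries entered the fit and the Benjamini-Hochberg adjustment. Of the 42 genes, 28 are given in every library: those with an adjusted p under 0.05 and an absolute log2 fold change of at least 1 between parental lines, between clones of a line, or in the difference of these changes, and a group mean of at least 1 TPM. From other lists up to 4 called genes with the largest changes are named. The 42 genes and all lists were chosen with earlier results of these data known, and none is independent support.

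Alternatives were a pseudocount of 0.1, no filter, a filter of 5 TPM, fitting only the compared groups, a block for the replicate number, upper quartile and median-of-ratios scaling, an absolute log2 fold change of at least 1 and leaving out each library. Same-numbered libraries of a line did not deviate together (correlations −0.318 to 0.190 over 18 pairs), so they were not paired. Promoter windows came from RefSeq on GRCh38.p14.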

Additional observations from a re-analysis of the deposited data

Results flagged for a closer look

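For 24 genes the Holoclone against Paraclone change differed between the lines in limma-trend, tested as the difference of the log2 fold changes (Panc89 minus Panc1). More positive in Panc89 were *LEF1* (3.27), *NKD2* (2.92), *WNT4* (2.00), *SFRP1* (1.95), *LRP5* (1.64), *TCF7* (1.58), *FZD9* (1.40), *ZNRF3* (1.07), *ROR1* (1.06) and *FZD10* (0.68), the last of which was listed at 0 in every Panc1 library, so that its value is the Panc89 change alone. More negative in Panc89 were *WNT9A* (−3.57), *ROR2* (−3.45), *FZD7* (−2.46), *DKK1* (−2.20), *WNT11* (−1.73), *FZD8* (−1.46), *LGR6* (−1.44), *WNT7A* (−1.40), *WNT5B* (−1.09), *TCF7L2* (−0.999), *FZD2* (−0.94), *WNT3* (−0.89), *FZD6* (−0.88) and *LRP6* (−0.58).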

How the results depend on the processing

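Of 143 calls of the 42 genes over 8 comparisons, 94 kept an adjusted p under 0.05 in every alternative in which the gene was tested, the added fold requirement aside, and no call changed its direction. Over all repeats of single results, 208 calls were lost and 80 gained. Requiring an absolute log2 fold change of at least 1 left 20 genes between the parental lines, 11 between the Panc1 clones and 10 between the Panc89 clones. Of all genes 37.4%, 11.6% and 13.2% met this requirement. Against parental cells it left 4 in the Panc1 Holoclone, 9 in the Panc1 Paraclone and 4 in the Panc89 Holoclone. The shares of all genes were 3.21%, 7.95% and 8.51%. For the Panc89 Holoclone the filter of 5 TPM left 7, against 26.4% of all genes. Without single libraries the counts ranged from 26 to 29 between the parental lines, 17 to 21 between the Panc1 clones, 14 to 17 between the Panc89 clones and 19 to 24 for the difference between the lines. In the same order, the share of all genes ranged from 61.3% to 63.7%, 29.5% to 36.0%, 28.2% to 41.0% and 29.7% to 37.5%. Against parental cells the counts ranged from 5 to 8 and 12 to 17 for the Panc1 Holoclone and Paraclone, and from 6 to 12 and 7 to 16 for those of Panc89. The share of all genes there ranged from 6.39% to 9.54%, 19.3% to 26.7%, 18.1% to 26.5% and 12.9% to 26.3%. The replicate numbers do not pair the libraries. In the fit with the replicate number as a block, the parental lines are compared at their last replicate, not at their group means. For that comparison the block fit is not like for like, and it is among the alternatives behind the 94 calls. With the replicate number as a block the counts were 24, 20, 16 and 22 in the 4 main comparisons, against 55.2%, 34.5%, 32.4% and 31.7% of all genes. They were 6 and 18 for the Panc1 clones against parental cells, against 8.71% and 24.7%. For the Panc89 clones they were 11 and 13, against 21.2% and 16.7%. Without read counts, what depth limits in the low transcripts is unknown.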
